A study of Mus musculus with 8 samples.

Results

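Cells import amino acids, and move lactate, pyruvate and related acids, through carriers of the solute carrier superfamily. All genes of the mouse families Slc1a, Slc3a, Slc6a, Slc7a, Slc16a, Slc36a, Slc38a and Slc43a that the array platform names were followed here in splenic dendritic cells. The members were picked by a rule on gene symbols that uses no measured value, though this choice was made with earlier results of these data known. They came to 76 of the 18193 genes named on the array, on 148 of its 45101 probe sets, of which 73 genes encode carriers of these families or their subunits. The other 3 symbols, Slc7a6os, Slc36a1os and Slc6a19os, start like a carrier's symbol but name opposite-strand genes, and the counts of carriers leave them out. A probe set is a group of short probes that together report 1 transcript, and its value is a log2 expression value, so a difference of 1 is a doubling.

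The study sorted conventional dendritic cells from the spleens of untreated female C57BL/6 mice, either wild type or RAG2-/-, into CD8α- and CD8α+ cells. RAG2-/- mice lack the recombinase that builds antigen receptors and so have no mature T or B lymphocytes, and the title asks how those lymphocytes influence antigen presentation by these cells. The mice were 10 weeks old per the sample labels, and 8 to 10 weeks per the series' design text. There were 8 arrays in 4 groups of 2: wild type CD8α-, wild type CD8α+, RAG2-/- CD8α- and RAG2-/- CD8α+. Nothing in the labels says that replicates came from separate mice or separate sorts, so p-values measure only the spread between these samples, which may be technical. In sorted bulk RNA, fewer cells of a type and less RNA per cell cannot be told apart.

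Dendritic cells take up and process antigen, and their growth and activation draw on amino acids that feed protein synthesis, the kinase complex mTORC1 and glutathione synthesis. Slc7a light chains carry large neutral or cationic amino acids and mostly need the Slc3a2 heavy chain (CD98) to reach the cell surface. Slc38a carriers, and Slc1a4 and Slc1a5 of the Slc1a family, bring in small neutral amino acids such as glutamine and alanine with sodium. Slc36a1 and Slc38a9 act at lysosomes, and Slc16a carriers move monocarboxylates such as lactate and pyruvate with protons. Several Slc16a carriers need a chaperone of the basigin family, either Bsg, Emb or Nptn.

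Promoter windows are given for 4 carriers whose subset difference had 1 direction and passed the test in both genotypes, and for Slc1a4, which had the largest knockout change among the carriers' brightest probe sets. Each runs from 250 bases before to 50 bases after the annotated start, 5′ to 3′ on the gene's strand, in the GRCm38.p6 assembly as given by RefSeq. Of the 24 carriers tested below, 16 matched at least 1 window, 29 windows in all. Slc16a7, whose subset difference also passed in both genotypes, matched none. Capitals mark matches, on either strand, to 4 motifs: the C/EBP-ATF composite site TGATGNAA, the E-box CACGTG, the core of the interferon-stimulated response element (GAAA, any 2 bases, GAAA) and the CCAAT box CCAAT. The windows are Slc16a4 (chr3:107290980-107291279, plus strand), Slc43a2 (chr11:75531444-75531743, plus strand, the first of 2 annotated starts), Slc38a2 (chr15:96699679-96699978, minus strand), Slc3a2 (chr19:8713848-8714147, minus strand) and Slc1a4 (chr11:20332664-20332963, minus strand).
Slc16a4: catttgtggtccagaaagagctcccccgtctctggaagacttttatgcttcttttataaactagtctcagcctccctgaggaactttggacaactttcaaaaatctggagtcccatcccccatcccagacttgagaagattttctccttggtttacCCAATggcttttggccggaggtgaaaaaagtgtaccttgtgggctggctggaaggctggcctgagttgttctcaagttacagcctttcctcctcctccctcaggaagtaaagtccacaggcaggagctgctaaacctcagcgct
Slc43a2: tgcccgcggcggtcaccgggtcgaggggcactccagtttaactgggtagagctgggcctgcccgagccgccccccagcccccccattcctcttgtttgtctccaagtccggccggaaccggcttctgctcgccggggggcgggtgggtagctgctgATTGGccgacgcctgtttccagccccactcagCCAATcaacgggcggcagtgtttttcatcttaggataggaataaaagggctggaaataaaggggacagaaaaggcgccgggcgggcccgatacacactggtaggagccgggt
Slc38a2: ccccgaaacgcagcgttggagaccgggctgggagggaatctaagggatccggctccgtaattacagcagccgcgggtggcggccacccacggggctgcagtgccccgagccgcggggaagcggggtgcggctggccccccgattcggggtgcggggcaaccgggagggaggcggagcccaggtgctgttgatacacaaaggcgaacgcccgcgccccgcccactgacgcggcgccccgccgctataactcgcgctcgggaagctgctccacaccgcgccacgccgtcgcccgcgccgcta
Slc3a2: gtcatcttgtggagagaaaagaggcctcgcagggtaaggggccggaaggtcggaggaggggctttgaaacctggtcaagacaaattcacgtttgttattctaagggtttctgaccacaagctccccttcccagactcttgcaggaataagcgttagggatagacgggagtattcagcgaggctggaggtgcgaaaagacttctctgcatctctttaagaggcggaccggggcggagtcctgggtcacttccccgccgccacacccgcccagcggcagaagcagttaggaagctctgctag
Slc1a4: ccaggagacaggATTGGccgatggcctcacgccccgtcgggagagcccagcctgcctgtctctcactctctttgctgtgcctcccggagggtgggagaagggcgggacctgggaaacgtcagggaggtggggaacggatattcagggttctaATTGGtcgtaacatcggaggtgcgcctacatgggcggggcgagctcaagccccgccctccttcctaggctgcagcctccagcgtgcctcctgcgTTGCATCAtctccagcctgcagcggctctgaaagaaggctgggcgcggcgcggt

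The composite site, the motif bound by ATF4 dimers in the response to amino acid shortage, stood in the Slc1a4 window, where it begins 4 bases before the start. It was also found in 2 of the windows of Slc7a7, which overlap and hold the same TGATGCAA match. In all, 3 of the 29 carrier windows held it, against 3.97% of all 32851 windows of this length. The CCAAT box was found in the windows of 7 of the 16 carriers, among them Slc16a4, Slc43a2 and Slc1a4. By window it was in 9 of the 29, against 37.41% of all windows. The E-box was found for Slc36a1 and Slc38a7, in 2 of the 29 windows (7.15% of all windows), and the interferon core for none of the 16 (3.44%). The Slc38a2 and Slc3a2 windows held no match to the 4 motifs, and no 2 matches overlapped in the printed windows. The Slc38a2 window was 73.0% G and C, against a median of 52.7% over all windows. These are matches of letters and not measured binding.

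The samples carried the markers of their sort, with Cd8a at 11.73 to 12.51 on the CD8α+ arrays and 5.80 to 7.70 on the others, and all 8 conventional dendritic cell markers at log2 5 or more on every array. Rag2, the deleted gene, was below 5 on all 8 arrays (2.49 to 3.63), so its probe set gave no check of the genotype labels. The RAG2-/- arrays shared 1 lowest value, 2.23, which 18217 to 18893 probe sets held, while on the wild type arrays the lowest value, 1.16 to 1.17, was held by 1 probe set. The genotypes were thus evidently processed apart, and a knockout effect and that processing cannot be told apart in a comparison of genotypes. RNA integrity differed too: the 3′ minus 5′ value of the Gapdh control was 3.44 to 5.25 on wild type and 1.94 to 2.87 on RAG2-/- arrays (exact permutation test, 2-sided p = 0.0286, the smallest that 4 against 4 arrays can give), and that of Actb 1.42 to 2.14 and 0.66 to 1.49 (p = 0.0571). Neutrophil transcripts stood at 5 or more for 7 of 8 markers on RAG2-/- CD8α- replicate 2 and for 6 on RAG2-/- CD8α+ replicate 1, and for 0 or 1 on the other 6 arrays. B cell markers at 5 or more numbered 7 of 9 on wild type and 2 to 3 on RAG2-/- arrays, and macrophage markers 5 to 6 of 10 against 9, while erythroid, mast cell and stromal lists had 0 at 5 or more on every array. NK cell markers at 5 or more numbered 1 to 2 of 7 on wild type and 3 to 5 on RAG2-/- arrays, and the summed log2 level of the 4 monocyte markers was 10.54 to 12.30 and 12.79 to 14.96. Within each genotype the Actb value also set the subsets apart, while that of Gapdh overlapped. Actb was 2.08 and 2.14 in wild type CD8α- against 1.55 and 1.42 in CD8α+ cells. In RAG2-/- cells it was 1.49 and 0.90 against 0.66 and 0.73. The monocyte sum was 11.90 and 12.30 against 10.71 and 10.54, and 14.82 and 14.96 against 13.04 and 12.79. The part of RNA integrity and of B cell, macrophage, NK cell or monocyte transcripts in the genotype and subset comparisons was not tested.

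For each gene the probe set with the highest mean was used, among those at log2 5 or more on at least 2 arrays, and 24 of the 73 carriers passed this filter. Slc38a had the most members above it, 6 of 9, followed by Slc7a with 4 of 15 and Slc16a with 4 of 13. The Slc6a family, which holds the transporters of neurotransmitters and of taurine and betaine, passed with 3 of 20. Slc43a passed with 2 of 3, Slc36a with 2 of 4, Slc1a with 2 of 7 and Slc3a with 1 of 2. The 49 carriers below the filter included Slc16a1, the widely expressed lactate carrier MCT1, which stood just outside it at 5.31 on wild type CD8α+ replicate 2 and at 2.92 to 4.60 on the other arrays. Slc16a7 stood just inside, at 5 or more on 3 arrays. Slc16a3, the lactate exporter MCT4, reached 4.31, and Slc7a11, the cystine carrier of glutathione synthesis, reached 4.13. Of a carrier below 5 it can be said only that it was not measured above that level, and the filter's 24 carriers are those that at least 2 arrays could measure.

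**Figure D1:**
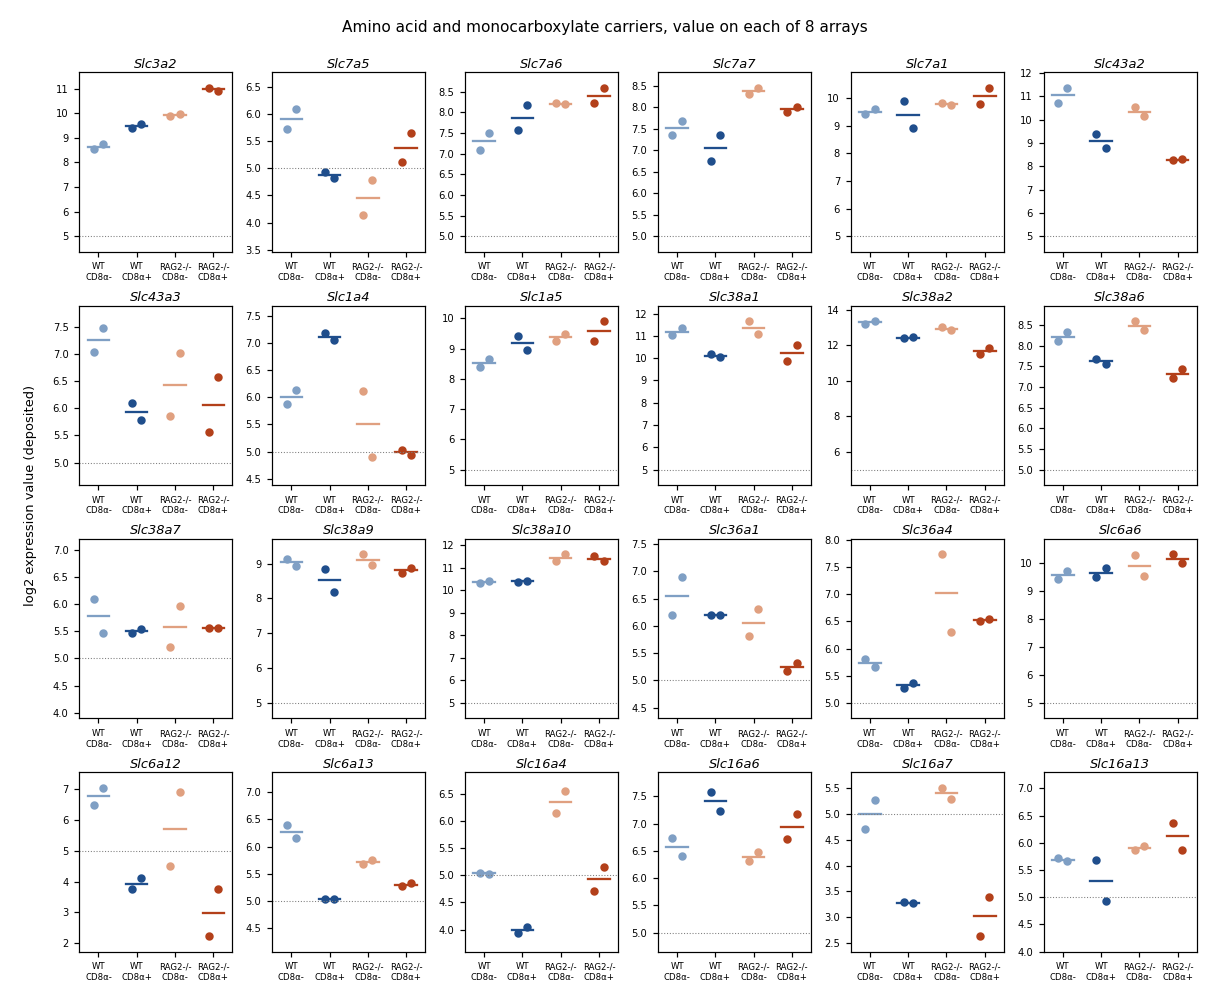
Each panel plots 1 of the 24 carriers, with the deposited log2 value of each array (points) and the group mean (line) for the 4 groups; each panel has its own vertical axis, and the dotted line marks log2 5. Slc3a2 is higher in each group from left to right, and Slc43a2, Slc38a2 and Slc16a7 are lower in CD8α+ than in CD8α- cells in both genotypes.

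Of the 24 carriers tested, more were called lower than higher in CD8α+ cells. In wild type cells 5 of 24 carriers were lower in CD8α+ cells (20.8%), namely Slc43a2, Slc16a7, Slc6a13, Slc16a4 and Slc38a2, and 1, Slc3a2, was higher (4.2%). In RAG2-/- cells 7 were lower (29.2%), namely Slc6a12, Slc16a7, Slc43a2, Slc16a4, Slc38a2, Slc38a6 and Slc38a1, and again Slc3a2 alone was higher. Calls are those of limma with an adjusted p below 0.05, after Benjamini-Hochberg adjustment over the 8763 genes tested. Slc16a7 and Slc6a12 reached 5 only on CD8α- arrays and so passed the filter through the group where they are high. The same holds for Slc16a4, which among CD8α+ arrays reached 5 only on RAG2-/- replicate 2 (5.15). With the filter at log2 7 the calls among 15 carriers were 3 lower and 2 higher in wild type and 4 and 1 in RAG2-/- cells. Of all 8763 genes 7.87% were called lower and 9.23% higher in wild type cells, and 10.7% lower and 11.1% higher in RAG2-/- cells. The median log2 difference of the 24 carriers was -0.44 in wild type and -0.39 in RAG2-/- cells, against 0.01 and 0.02 over all genes. Without regard to the test, the arrays of the subsets did not overlap for 13 carriers that were lower and 5 that were higher in wild type CD8α+ cells (28.3% and 32.4% of all genes), and for 11 and 3 in RAG2-/- cells (27.6% and 30.6%). Slc16a4, Slc16a7, Slc38a2 and Slc43a2 were called lower in both genotypes, as were 6.28% of all genes, and Slc3a2 higher in both, as were 6.92%. The wild type count of 6 calls was not steady: it fell to 3 and 2 without either wild type CD8α- array (replicates 1 and 2), to 3 and 2 without either wild type CD8α+ array, and stood at 10 without either RAG2-/- CD8α- array and at 11 without both arrays that carried neutrophil transcripts. Without those 2 arrays the RAG2-/- count was 7 in place of 8, and 4 of the 7 were among the 8.

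**Figure D2:**
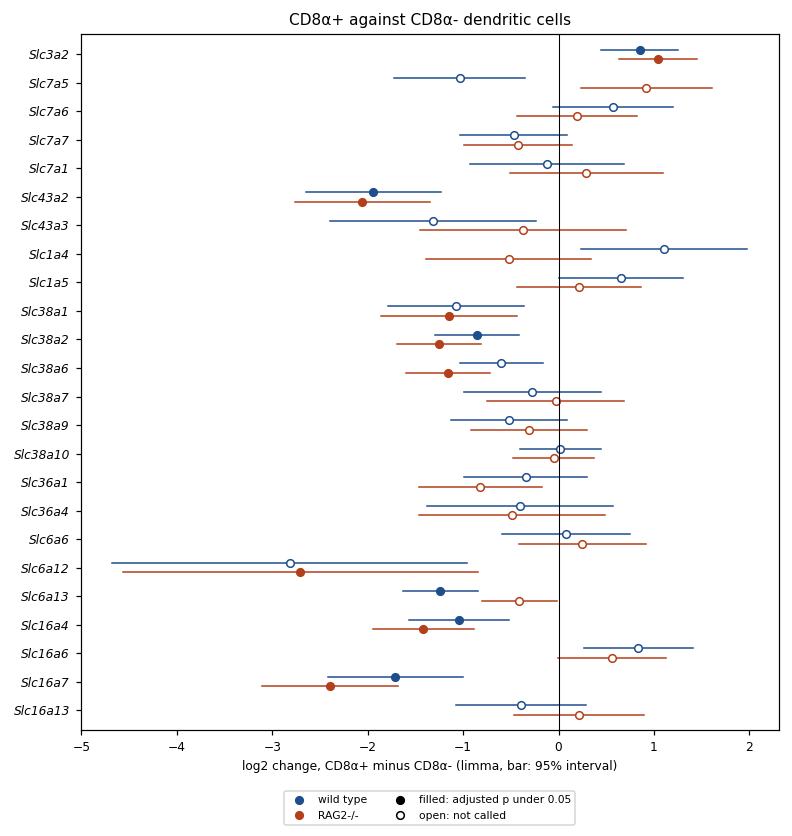
For each of the 24 carriers, the horizontal axis gives the log2 difference of CD8α+ minus CD8α- cells with its 95% interval from limma, for wild type (blue) and RAG2-/- cells (red); filled points passed the test. Slc43a2 and Slc16a7 lie near -2 in both genotypes, and Slc3a2 is the carrier whose filled points lie to the right of 0.

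Between genotypes, carriers moved both ways. In CD8α- cells 7 of 24 were higher in RAG2-/- than in wild type cells (29.2%), namely Slc16a4, Slc3a2, Slc36a4, Slc38a10, Slc7a6, Slc7a7 and Slc1a5, and 2 were lower (8.3%), Slc7a5 and Slc6a13. In CD8α+ cells 4 were higher (16.7%), Slc3a2, Slc38a10, Slc16a4 and Slc7a7, and 3 lower (12.5%), Slc1a4, Slc36a1 and Slc38a2. These shares lie near those of all genes in the same limma test: 23.4% higher and 17.1% lower in CD8α- cells, and 20.8% higher and 16.1% lower in CD8α+ cells. Slc16a4, Slc38a10, Slc3a2 and Slc7a7 were called higher in both subsets, as were 16.2% of all genes. The carriers' median change was 0.20 in CD8α- and 0.28 in CD8α+ cells, against 0.14 and 0.09 over all genes. Centring each array on its median moved the median of all genes to 0.81 and 0.78 and the split of calls from 7 higher and 2 lower to 14 and 0 in CD8α- cells, and from 4 and 3 to 13 and 1 in CD8α+ cells; quantile normalization gave 6 and 2, and 7 and 2. The CD8α- count of 9 fell to 4 and 3 without wild type CD8α- replicates 1 and 2 and to 5 without RAG2-/- CD8α- replicate 1, and the CD8α+ count of 7 fell to 4 without wild type CD8α+ replicate 2 or either RAG2-/- CD8α+ array.

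**Figure D3:**
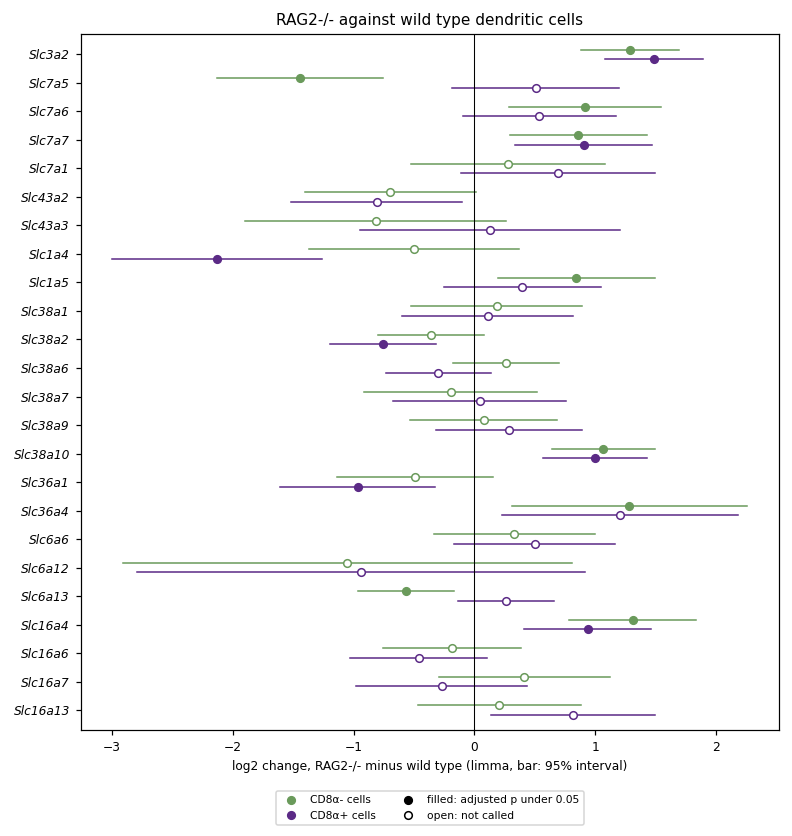
For each of the 24 carriers, the horizontal axis gives the log2 difference of RAG2-/- minus wild type cells with its 95% interval from limma, for CD8α- (green) and CD8α+ cells (purple); filled points passed the test. Slc3a2, Slc38a10, Slc16a4 and Slc7a7 are filled to the right of 0 in both subsets, and Slc1a4 in CD8α+ cells lies farthest to the left among filled points.

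Slc3a2 encodes CD98 heavy chain, the surface subunit that several Slc7a light chains share. It read 8.53 and 8.74 on the wild type CD8α- arrays, 9.40 and 9.56 in wild type CD8α+, 9.87 and 9.97 in RAG2-/- CD8α- and 11.03 and 10.90 in RAG2-/- CD8α+ cells. No group overlapped another, and it was the carrier called in all 4 comparisons of 2 groups together with Slc16a4. It was higher in CD8α+ cells by 0.85 in wild type (1.80-fold, SE 0.17, limma adjusted p = 0.0156) and by 1.04 in RAG2-/- cells (2.06-fold, adjusted p = 0.00592). RAG2-/- cells were above wild type by 1.29 among CD8α- (2.44-fold, adjusted p = 0.00218) and by 1.49 among CD8α+ cells (2.80-fold, adjusted p = 0.00171), and both of these calls held under every alternative tried. The wild type subset call was lost without wild type CD8α- replicate 1 (0.74, adjusted p = 0.0999), CD8α- replicate 2 (0.95, adjusted p = 0.05035) or CD8α+ replicate 2 (0.77, adjusted p = 0.0837), and the RAG2-/- one without both arrays with neutrophil transcripts (1.03, adjusted p = 0.0567).

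Slc7a5, a light chain of Slc3a2 and the leucine and tryptophan carrier LAT1, read 5.72 and 6.09 in wild type CD8α-, 4.92 and 4.82 in wild type CD8α+, 4.13 and 4.79 in RAG2-/- CD8α- and 5.10 and 5.65 in RAG2-/- CD8α+ cells. It lay close to the filter level, and the wild type CD8α- group was above each of the others. It was at least 1.88-fold lower in RAG2-/- than in wild type CD8α- cells, taken against a level of 5 (fitted log2 change -1.45, SE 0.29, limma adjusted p = 0.00863), and the call was lost without wild type CD8α- replicate 2 (-1.26, adjusted p = 0.0614) and after centring (-0.79, adjusted p = 0.0581). Its subset difference was -1.04 in wild type (adjusted p = 0.0523) and 0.92 in RAG2-/- cells (adjusted p = 0.0649), neither of them called. Its order of groups differed from that of Slc3a2.

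Slc7a6 and Slc7a7 exchange arginine or lysine for neutral amino acids and pair with Slc3a2 as well. Slc7a6 read 7.09 and 7.51 in wild type CD8α-, 7.57 and 8.17 in wild type CD8α+, 8.23 and 8.20 in RAG2-/- CD8α- and 8.22 and 8.60 in RAG2-/- CD8α+ cells. Slc7a7 read 7.36 and 7.68, 6.75 and 7.35, 8.32 and 8.45, and 7.90 and 8.01 in the same order of groups. With these, their brightest probe sets, the RAG2-/- arrays lay above the wild type arrays within each subset for both genes, and the group means of Slc7a6 stood in the same order as those of Slc3a2. A second probe set of Slc7a6 changed by 0.46 in CD8α- and -0.52 in CD8α+ cells between genotypes, with no call. Slc7a6 rose by 0.91 in RAG2-/- CD8α- cells (1.88-fold, SE 0.27, limma adjusted p = 0.0318), a call lost without wild type CD8α- replicate 1 (0.71, adjusted p = 0.172) or 2 (1.12, adjusted p = 0.0594) and without RAG2-/- CD8α- replicate 1 (0.90, adjusted p = 0.0945) or 2 (0.93, adjusted p = 0.0901), and with the mean of both probe sets (0.69, adjusted p = 0.0854). Slc7a7 rose by 0.86 in CD8α- (1.82-fold, SE 0.24, adjusted p = 0.0268) and 0.90 in CD8α+ cells (1.87-fold, adjusted p = 0.0248). The first was lost without any 1 of the 4 CD8α- arrays (0.70 to 1.02, adjusted p 0.0602 to 0.146) and the second without wild type CD8α+ replicate 1 (0.61, adjusted p = 0.114) or RAG2-/- CD8α+ replicate 1 (0.96, adjusted p = 0.0739) or 2 (0.85, adjusted p = 0.0957).

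Slc7a6os lies beside Slc7a6 with no protein-coding gene between them. It read 8.11 and 8.25 in wild type CD8α-, 8.70 and 8.03 in wild type CD8α+, 7.21 and 6.98 in RAG2-/- CD8α- and 6.93 and 7.25 in RAG2-/- CD8α+ cells. It was lower in RAG2-/- cells by -1.08 on the log2 scale in CD8α- (SE 0.26, limma adjusted p = 0.0161) and -1.27 in CD8α+ cells (adjusted p = 0.00997), opposite in sign to its neighbour, and centring ended both calls (-0.42 and -0.60). The first call was lost without wild type CD8α- replicate 1 (-1.15, adjusted p = 0.0679) or 2 (-1.01, adjusted p = 0.087) or RAG2-/- CD8α- replicate 2 (-0.97, adjusted p = 0.0687), and the second without RAG2-/- CD8α+ replicate 1 (-1.11, adjusted p = 0.0551). Slc7a1, the arginine and lysine carrier CAT1, works without Slc3a2 and was called in none of the comparisons, at 8.89 to 10.36 over the 8 arrays.

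Slc43a2 (LAT4), which lets branched-chain amino acids, phenylalanine and methionine cross the membrane down their gradient, showed the largest subset difference of the carriers called in wild type cells. It read 10.70 and 11.36 in wild type CD8α-, 9.39 and 8.78 in wild type CD8α+, 10.53 and 10.14 in RAG2-/- CD8α- and 8.25 and 8.30 in RAG2-/- CD8α+ cells. With this, its brightest probe set, all 4 CD8α+ arrays lay below all 4 CD8α- arrays. The difference was -1.94 in wild type (3.85-fold lower, SE 0.30, limma adjusted p = 0.0049) and -2.06 in RAG2-/- cells (4.16-fold lower, adjusted p = 0.00339). The wild type call held under every alternative, and the RAG2-/- call was lost only without both arrays with neutrophil transcripts (-2.23, adjusted p = 0.0509). Slc43a3, a relative that carries purine nucleobases, stood at 7.03 and 7.47 in wild type CD8α- against 6.10 and 5.78 in wild type CD8α+ cells, and was called in no comparison.

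Slc1a4 and Slc1a5 exchange small neutral amino acids, serine and alanine for the first and glutamine for the second. Slc1a4 read 5.87 and 6.14 in wild type CD8α-, 7.17 and 7.06 in wild type CD8α+, 6.12 and 4.90 in RAG2-/- CD8α- and 5.03 and 4.94 in RAG2-/- CD8α+ cells. Wild type CD8α+ cells stood above every other group. Slc1a4 was 4.38-fold lower in RAG2-/- than in wild type CD8α+ cells (log2 change -2.13, SE 0.37, limma adjusted p = 0.0057), the largest genotype change among the carriers' brightest probe sets, and the call held under every alternative (-2.19 to -1.46). It rests on 1 of 3 Slc1a4 probe sets, since the others stood at 2.09 to 2.34 on all arrays, below the filter. The RAG2-/- CD8α+ values lie at the filter level. Slc1a5 read 8.41 and 8.66 in wild type CD8α-, 9.42 and 8.96 in wild type CD8α+, 9.25 and 9.49 in RAG2-/- CD8α- and 9.26 and 9.91 in RAG2-/- CD8α+ cells, so that wild type CD8α- cells were the low group. It rose by 0.84 in RAG2-/- CD8α- cells (1.79-fold, SE 0.28, adjusted p = 0.0459). That call was lost without any 1 of the 4 CD8α- arrays (0.72 to 0.97, adjusted p 0.0814 to 0.203) or either wild type CD8α+ array (adjusted p = 0.0553), and after quantile normalization (0.66, adjusted p = 0.0773).

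Slc38a1 and Slc38a2, the sodium-coupled carriers SNAT1 and SNAT2 of glutamine and alanine, lie side by side on chromosome 15. Slc38a2 read 13.22 and 13.37 in wild type CD8α-, 12.40 and 12.49 in wild type CD8α+, 13.03 and 12.85 in RAG2-/- CD8α- and 11.53 and 11.85 in RAG2-/- CD8α+ cells. Slc38a1 read 11.03 and 11.35, 10.19 and 10.04, 11.67 and 11.08, and 9.88 and 10.57 in the same order. With these, their brightest probe sets, both were lower on each CD8α+ array than on any CD8α- array. The Slc38a2 difference was -0.85 in wild type (1.81-fold lower, SE 0.19, limma adjusted p = 0.0201) and -1.25 in RAG2-/- cells (2.38-fold lower, adjusted p = 0.00372). The latter held under every alternative, and the wild type call was lost without any 1 of the 4 wild type arrays (-0.93 to -0.78, adjusted p 0.0776 to 0.117). Slc38a2 was also lower in RAG2-/- than in wild type CD8α+ cells (-0.75, adjusted p = 0.0194), a call lost without wild type CD8α+ replicate 1 (-0.80, adjusted p = 0.0658) or 2 (-0.71, adjusted p = 0.0762) or RAG2-/- CD8α+ replicate 1 (-0.60, adjusted p = 0.0845), and after centring (-0.08). Slc38a1 was called in RAG2-/- cells (-1.15, 2.22-fold lower, SE 0.30, adjusted p = 0.0352) and missed the threshold in wild type cells (-1.07, adjusted p = 0.0511), with no called difference between the genotypes' subset effects (-0.07, adjusted p = 0.985). Its call was lost without any 1 of the 4 wild type arrays (adjusted p 0.0646 to 0.0658) or without replicate 1 of RAG2-/- CD8α- (-0.86, adjusted p = 0.155) or of RAG2-/- CD8α+ cells (-0.80, adjusted p = 0.1555).

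Slc38a6, a further member of this family, read 8.12 and 8.33 in wild type CD8α-, 7.68 and 7.57 in wild type CD8α+, 8.60 and 8.38 in RAG2-/- CD8α- and 7.22 and 7.44 in RAG2-/- CD8α+ cells. It was lower in RAG2-/- CD8α+ than in CD8α- cells by -1.16 on the log2 scale (2.24-fold lower, SE 0.19, limma adjusted p = 0.00506), under every alternative. The wild type difference had the same sign (-0.60, adjusted p = 0.07). Slc38a10 read 10.33 and 10.43, 10.37 and 10.42, 11.31 and 11.59, and 11.50 and 11.29 in the same order of groups, with the subsets alike to within the arrays' spread and the genotypes apart. Its RAG2-/- change was 1.07 in CD8α- (2.10-fold, SE 0.18, adjusted p = 0.00478) and 0.999 in CD8α+ cells (1.998-fold, adjusted p = 0.00676). The subset difference had a 95% interval of -0.41 to 0.44 in wild type and -0.48 to 0.37 in RAG2-/- cells. Slc38a9, the lysosomal arginine sensor, and Slc38a7, a lysosomal glutamine carrier, were called in no comparison with their brightest probe sets, at 8.17 to 9.26 and at 5.20 to 6.09 over the arrays.

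The proton-coupled carriers Slc36a1 and Slc36a4 changed in opposite directions between genotypes. Slc36a1, which releases small amino acids from lysosomes, read 6.21 and 6.90 in wild type CD8α-, 6.21 and 6.21 in wild type CD8α+, 5.82 and 6.30 in RAG2-/- CD8α- and 5.17 and 5.31 in RAG2-/- CD8α+ cells. It was lower in RAG2-/- than in wild type CD8α+ cells by -0.97 on the log2 scale (1.96-fold lower, SE 0.27, limma adjusted p = 0.0309). Slc36a4 read 5.80 and 5.66, 5.28 and 5.37, 7.73 and 6.30, and 6.52 and 6.54 in the same order, each RAG2-/- array above each wild type array. It rose by 1.28 in RAG2-/- CD8α- cells (2.44-fold, SE 0.41, adjusted p = 0.0434), and its CD8α+ change of 1.21 missed the threshold (adjusted p = 0.0566). The Slc36a1 call was lost without any 1 of the 4 CD8α+ arrays (-1.04 to -0.90, adjusted p 0.0834 to 0.119) and after centring (-0.29, adjusted p = 0.417). The Slc36a4 call was lost without RAG2-/- CD8α- replicate 1, the high array (0.57, adjusted p = 0.0703), and without any other array but RAG2-/- CD8α- replicate 2 (adjusted p 0.0701 to 0.169).

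Of the Slc6a family, Slc6a12 and Slc6a13 are neighbours that carry betaine, GABA and taurine. Slc6a13 read 6.40 and 6.15 in wild type CD8α-, 5.04 and 5.03 in wild type CD8α+, 5.67 and 5.75 in RAG2-/- CD8α- and 5.28 and 5.32 in RAG2-/- CD8α+ cells. Slc6a12 read 6.48 and 7.03, 3.76 and 4.11, 4.51 and 6.90, and 2.23 and 3.76 in the same order. CD8α- cells held the higher values of both genes in each genotype. Slc6a13 was 2.36-fold lower in wild type CD8α+ cells (log2 difference -1.24, SE 0.17, limma adjusted p = 0.00278), under every alternative, with -0.41 in RAG2-/- cells (adjusted p = 0.132). It was also lower in RAG2-/- than in wild type CD8α- cells (-0.56, adjusted p = 0.0339), a call lost without any 1 of the 4 CD8α- arrays (-0.69 to -0.44, adjusted p 0.0554 to 0.1605) and turned to 0.09 by centring. Slc6a12 was at least 3.37-fold lower in wild type CD8α+ cells against a level of 5 (adjusted p = 0.0511, not called) and at least 1.63-fold lower in RAG2-/- CD8α+ cells (fitted log2 difference -2.71, SE 0.79, adjusted p = 0.0493). The latter call held without RAG2-/- CD8α- replicate 1 and was lost without each other array (-3.47 to -1.51, adjusted p 0.0608 to 0.232), and without both arrays with neutrophil transcripts the difference was -0.75.

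Slc6a6, the taurine carrier, was called in no comparison with its brightest probe set, at 9.45 to 10.31 over the 8 arrays. Its subset difference had a 95% interval of -0.59 to 0.75 in wild type and -0.42 to 0.92 in RAG2-/- cells. Slc6a6, Slc7a1 and Slc38a9 had the highest mean values among the 7 carriers whose brightest probe set was called nowhere, the others being Slc43a3, Slc38a7, Slc16a6 and Slc16a13.

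Among the Slc16a family, Slc16a7 (MCT2, a high-affinity pyruvate and lactate carrier) and the orphan Slc16a4 were lower in CD8α+ cells. Slc16a7 read 4.71 and 5.27 in wild type CD8α-, 3.29 and 3.27 in wild type CD8α+, 5.51 and 5.30 in RAG2-/- CD8α- and 2.63 and 3.39 in RAG2-/- CD8α+ cells. All CD8α+ arrays were at 3.39 or less. It was at least 1.32-fold lower in RAG2-/- CD8α+ cells against a level of 5 (fitted log2 difference -2.39, SE 0.30, limma adjusted p = 0.00188), and in wild type cells both group means were below 5, so no fold is given (-1.71, adjusted p = 0.0084). The wild type call was lost without CD8α- replicate 2 (-1.43, adjusted p = 0.0675) and without wild type CD8α+ replicate 1 (-1.72, adjusted p = 0.0518) or 2 (-1.70, adjusted p = 0.0613). With values below 5 set to 5 the differences were -0.14 and -0.41 and neither was called.

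Slc16a4 read 5.05 and 5.02 in wild type CD8α-, 3.94 and 4.04 in wild type CD8α+, 6.14 and 6.55 in RAG2-/- CD8α- and 4.70 and 5.15 in RAG2-/- CD8α+ cells. It was higher in CD8α- cells and higher in RAG2-/- cells at once. The subset difference was -1.05 in wild type (SE 0.22, limma adjusted p = 0.0187, at least 1.02-fold lower against a level of 5) and -1.42 in RAG2-/- cells (2.67-fold lower, adjusted p = 0.00479). Its RAG2-/- change was 1.31 in CD8α- (2.48-fold, adjusted p = 0.00487), under every alternative, and 0.94 in CD8α+ cells (adjusted p = 0.0172), where both group means were below 5. The wild type subset call was lost without any 1 of the 4 wild type arrays (-1.10 to -0.99, adjusted p 0.0803 to 0.106), and the CD8α+ genotype call without wild type CD8α+ replicate 1 (0.89, adjusted p = 0.0849) or 2 (0.99, adjusted p = 0.0583) or RAG2-/- CD8α+ replicate 2 (0.71, adjusted p = 0.0785). With values below 5 set to 5 these became -0.03 (adjusted p = 0.964) and 0.07 (adjusted p = 0.781). Slc16a6 and Slc16a13 were called in no comparison, Slc16a6 at 6.41 to 6.74 in wild type CD8α- and 7.23 to 7.59 in wild type CD8α+ cells (0.84, adjusted p = 0.056).

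Whether the subsets responded differently to the loss of RAG2 was tested by the interaction, the RAG2-/- change in CD8α+ less that in CD8α- cells, in which an offset shared by all arrays of a genotype cancels. Limma called 0 of the 24 carriers, against 0.24% of all genes, and 3 had an unadjusted p under 0.05, against 7.25%. The 3 were Slc7a5 (1.95, SE 0.41, 95% interval 0.98 to 2.93, adjusted p = 0.243), Slc1a4 (-1.63, -2.86 to -0.40, adjusted p = 0.497) and Slc6a13 (0.83, 0.27 to 1.39, adjusted p = 0.44). Their values thus do not show a difference between subsets, nor that the subsets responded alike.

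Where a carrier had several probe sets above the filter, they gave closer values for subsets than for genotypes. Over the 8 carriers with more than 1 such probe set, the median gap between a gene's highest and lowest log2 change was 0.58 and 0.25 for the wild type and RAG2-/- subset comparisons, and 1.39 and 1.15 for the genotype comparisons in CD8α- and CD8α+ cells. The same held for all 3626 genes with several, at 0.43, 0.46, 1.05 and 1.06. The 3 probe sets of Slc38a2 were each called lower in CD8α+ cells, by -1.51 to -0.85 in wild type and -2.24 to -1.25 in RAG2-/- cells. Their genotype changes were -0.36, 1.22 and 0.57 in CD8α- and -0.75, 0.49 and 0.24 in CD8α+ cells, so the direction of Slc38a2 between genotypes depended on the probe set, and the mean of the 3 gave -0.01 in CD8α+ cells. The 2 probe sets of Slc43a2 were both called lower in CD8α+ cells in each genotype. The less bright one was also lower in RAG2-/- cells, by -1.14 in CD8α- and -1.65 in CD8α+ cells (limma adjusted p = 0.0177 and 0.00536). The less bright probe set of Slc38a1 rose in RAG2-/- cells by 1.615 and 0.96 (limma adjusted p = 0.00398 and 0.0239). Its subset difference was -0.38 in wild type (adjusted p = 0.386) and -1.04 in RAG2-/- cells (adjusted p = 0.0294). One probe set of Slc6a6 rose in RAG2-/- cells by 2.31 and 2.33 (limma adjusted p = 0.00274 and 0.00286) while the brighter one changed by 0.33 and 0.50 without a call. Of the 6 probe sets of Slc38a9, a pair rose in RAG2-/- cells, one by 1.49 and 1.77 (limma adjusted p = 0.00934 and 0.0056) and one by 1.88 and 1.57 (adjusted p = 0.00705 and 0.0139), while the brightest changed by 0.08 and 0.29 without a call. The latter of that pair and another were called lower in RAG2-/- CD8α+ than in CD8α- cells (-1.29 and -1.69, adjusted p = 0.0438 and 0.0253). The 4 probe sets of Slc38a10 gave -0.13 to 1.23 in CD8α- and -0.29 to 0.999 in CD8α+ cells, and their mean was not called (0.58, adjusted p = 0.109, and 0.46, adjusted p = 0.185).

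**Figure D4:**
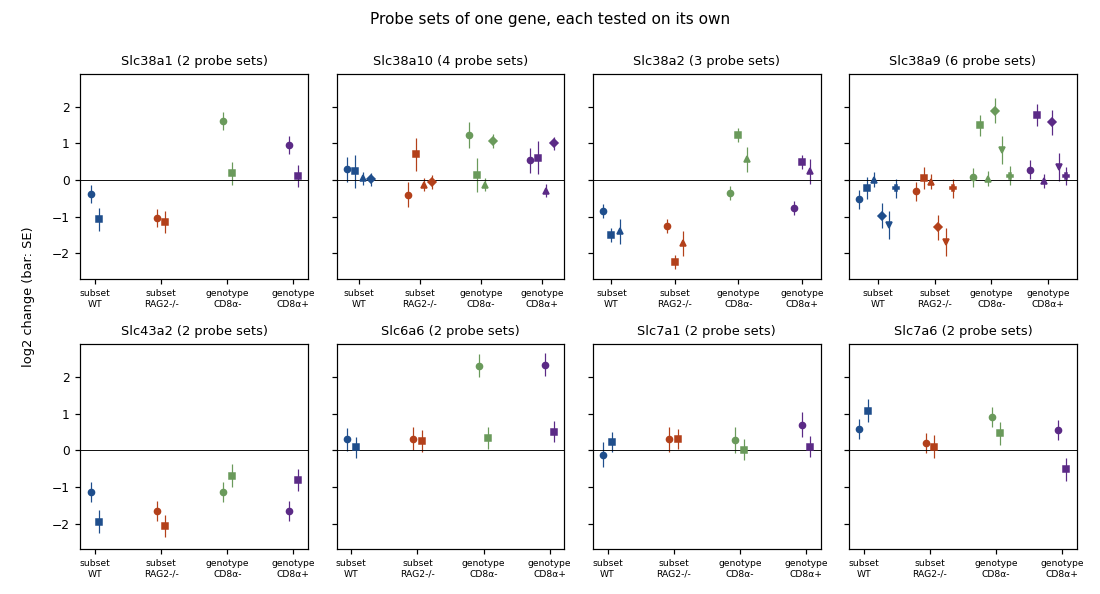
Each panel shows 1 of the 8 carriers with several probe sets above the filter, with the log2 change (± SE, limma) of each probe set, 1 symbol per probe set, in the 2 subset and 2 genotype comparisons. The points of Slc38a2 all lie below 0 for the subsets and on both sides of 0 for the genotypes.

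Among the carriers' partners, Cltrn and Emb differed between subsets. Of 4 partner genes tested besides Slc3a2, 1 was higher and 1 lower in CD8α+ cells in each genotype. Of all genes 9.23% were higher and 7.87% lower in wild type, and 11.1% and 10.7% in RAG2-/- CD8α+ cells. Cltrn (collectrin), which brings amino acid carriers of the Slc6a family to the surface in kidney, read 3.18 and 3.06 in wild type CD8α-, 9.71 and 9.37 in wild type CD8α+, 2.67 and 3.47 in RAG2-/- CD8α- and 9.69 and 9.68 in RAG2-/- CD8α+ cells. It was at least 23.2-fold higher in wild type and at least 25.7-fold higher in RAG2-/- CD8α+ cells against a level of 5 (limma adjusted p = 4e-05 and 3.15e-05), under every alternative. Cltrn reached 5 only on CD8α+ arrays and so passed the filter through the group where it is high. Emb (embigin), the chaperone of Slc16a7, read 10.15 and 10.31, 6.92 and 7.37, 12.35 and 12.18, and 7.40 and 4.48 in the same order of groups, lower on every CD8α+ array, as was Slc16a7. It was 80.2-fold lower in RAG2-/- CD8α+ cells (-6.32, SE 0.80, limma adjusted p = 0.00195), a call lost with the RAG2-/- arrays fitted alone (adjusted p = 0.0571), and its size moved to -7.78 without RAG2-/- CD8α+ replicate 1 and -4.87 without replicate 2, which is below 5. It was 8.53-fold lower in wild type cells (-3.09, adjusted p = 0.039). The wild type call was lost without any 1 of the 4 wild type arrays (-3.32 to -2.87, adjusted p 0.139 to 0.185) or either RAG2-/- CD8α- array (adjusted p = 0.0614).

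Bsg (basigin), the chaperone of Slc16a1 and Slc16a3, read 5.90 and 5.89 in wild type CD8α-, 5.80 and 5.90 in wild type CD8α+, 6.42 and 7.62 in RAG2-/- CD8α- and 8.52 and 7.16 in RAG2-/- CD8α+ cells. It rose in RAG2-/- CD8α+ cells by 1.99 (SE 0.51, limma adjusted p = 0.0216), a call lost without wild type CD8α+ replicate 1 (1.94, adjusted p = 0.105) or 2 (2.04, adjusted p = 0.0846) or RAG2-/- CD8α+ replicate 1 (1.31, adjusted p = 0.0976). Nptn (neuroplastin), a relative of Bsg, stood between 13.06 and 13.78 on all arrays and rose by 0.60 in RAG2-/- CD8α- cells (adjusted p = 0.0294), a call lost without wild type CD8α- replicate 1 (0.60, adjusted p = 0.108) or 2 (0.60, adjusted p = 0.103) or RAG2-/- CD8α- replicate 1 (0.48, adjusted p = 0.107).

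Among sensors of amino acids and regulators of mTORC1, Fnip2 and Sesn1 differed between subsets in opposite directions. Of 27 such genes tested, 2 were higher and 3 lower in wild type CD8α+ cells and 3 and 3 in RAG2-/- cells, shares near those of all genes (9.23% and 7.87%, 11.1% and 10.7%). Fnip2, a partner of folliculin at the lysosome, read 5.47 and 6.34 in wild type CD8α-, 11.04 and 10.36 in wild type CD8α+, 7.32 and 7.38 in RAG2-/- CD8α- and 11.49 and 11.56 in RAG2-/- CD8α+ cells. It was 27.6-fold higher in wild type (limma adjusted p = 0.000183) and 18.0-fold higher in RAG2-/- CD8α+ cells (adjusted p = 0.000298). Sesn1, of the sestrin family that restrains mTORC1, read 10.91 and 11.10, 8.88 and 8.62, 12.61 and 12.29, and 9.82 and 9.63 in the same order, 4.78-fold lower in wild type (adjusted p = 0.000497) and 6.62-fold lower in RAG2-/- CD8α+ cells (adjusted p = 0.000217). The subset calls of both held under every alternative. Between genotypes 9 of the 27 were higher and 1 lower in RAG2-/- CD8α- cells, and 9 and 3 in CD8α+ cells (all genes 23.4% and 17.1%, 20.8% and 16.1%), at medians of 0.35 and 0.44; centring made these 16 and 0, and 17 and 1. Of the subunits of Ragulator, which anchors mTORC1 to lysosomes, Lamtor2 rose by 0.95 and 1.34 and Lamtor3 by 1.54 and 1.34 under every alternative. Lamtor1 was also called in CD8α- cells, a change whose direction reversed with the mean of its probe sets. Lamtor5 was lower in RAG2-/- CD8α- cells (-1.07, limma adjusted p = 0.00566), a call that centring (-0.41) and the mean of its probe sets (-0.44) ended.

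**Figure D5:**
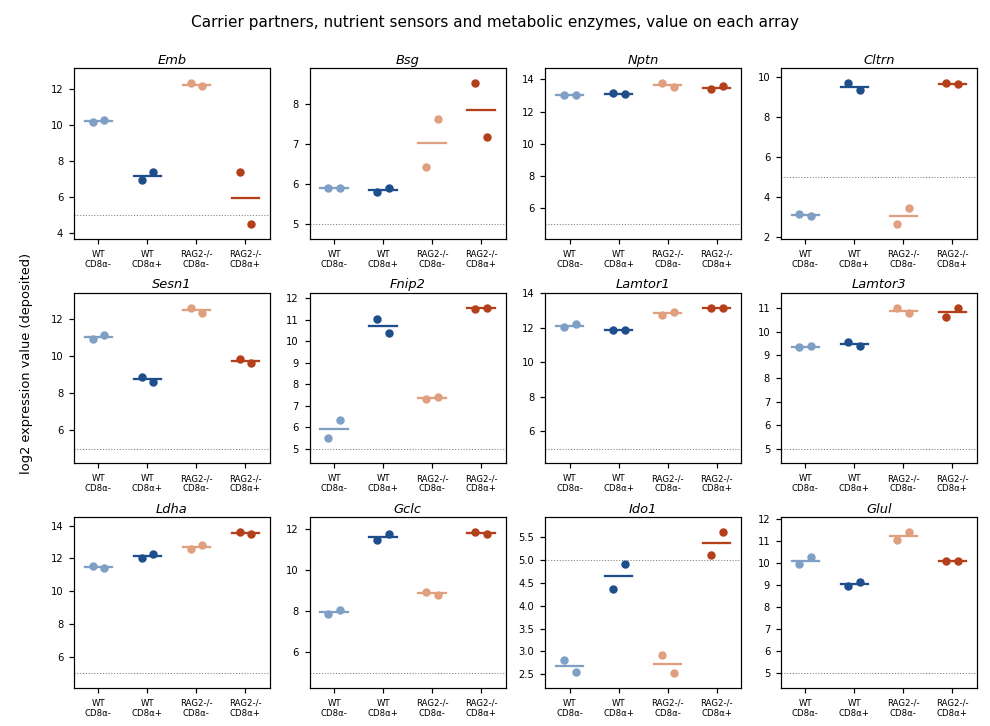
Each panel plots 1 gene of the pathway lists, with the deposited log2 value of each array (points) and the group mean (line) for the 4 groups, on its own vertical axis; the dotted line marks log2 5. Cltrn, Fnip2 and Gclc are high on the CD8α+ arrays of both genotypes, Emb and Sesn1 on the CD8α- arrays, and Ldha and Lamtor3 on the RAG2-/- arrays.

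Among enzymes of amino acid breakdown and glutathione synthesis, Gclc was higher in CD8α+ cells of both genotypes. Got1 and Ido1 are described for RAG2-/- cells, where both were higher in CD8α+ cells. Of 14 tested, 5 were higher and 1 lower in wild type and 7 and 2 in RAG2-/- cells, at medians of 0.42 and 0.72 against 0.01 and 0.02 over all genes. Of all genes 9.23% were higher and 7.87% lower in wild type, and 11.1% and 10.7% in RAG2-/- CD8α+ cells. Without 1 array the counts of higher enzymes ran from 2 to 5 and from 4 to 7. The list was chosen with earlier results of these data known. Its counts and medians thus give no independent evidence on these enzymes as a group. Gclc, the catalytic subunit of the first enzyme of glutathione synthesis, read 7.84 and 8.03 in wild type CD8α-, 11.43 and 11.75 in wild type CD8α+, 8.95 and 8.79 in RAG2-/- CD8α- and 11.83 and 11.73 in RAG2-/- CD8α+ cells. It was 12.6-fold higher in wild type (limma adjusted p = 7.11e-05) and 7.52-fold higher in RAG2-/- CD8α+ cells (adjusted p = 0.000131), under every alternative, while Slc7a11, which imports the cystine for that pathway, was below 5 on all arrays. Got1, an aspartate aminotransferase, was higher by 1.91 in RAG2-/- CD8α+ cells (limma adjusted p = 0.00609), also under every alternative. Ido1, which breaks down tryptophan, read 2.93 and 2.53 in RAG2-/- CD8α- and 5.11 and 5.62 in RAG2-/- CD8α+ cells. It was at least 1.29-fold higher in the latter against a level of 5 (limma adjusted p = 0.000893). Among RAG2-/- arrays Ido1 reached 5 only on those of CD8α+ cells, the group where it is high. Most Ido1 values lie below 5, and with those set to 5 it was not called. Between genotypes 4 of the 14 were higher in RAG2-/- CD8α- and 5 in CD8α+ cells, with none called lower, against 23.4% and 20.8% of all genes higher. Centring made these 8 and 11, and leaving out 1 array gave 2 to 5 and 1 to 4.

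Among 14 genes of the amino acid shortage response, 4 were higher and 4 lower in RAG2-/- than in wild type CD8α- cells, and 3 and 3 in CD8α+ cells, against 23.4% and 17.1%, and 20.8% and 16.1%, of all genes. The balance depended on scaling, since centring gave 6 and 2, and 7 and 1. Eif2ak4 (GCN2), the kinase that senses uncharged tRNA, was lower by -1.43 and -1.66 in CD8α- and CD8α+ cells (limma adjusted p = 0.0047 and 0.00322), and Atf3, a transcription factor downstream of ATF4, was higher by 2.40 and 1.56 (adjusted p = 0.000521 and 0.00232), all under every alternative. By subset 0 were higher and 2 lower in wild type CD8α+ cells, and 1 and 3 in RAG2-/- cells. Of all genes 9.23% were higher and 7.87% lower in wild type, and 11.1% and 10.7% in RAG2-/- CD8α+ cells. Centring gave 0 and 2, and 1 and 2. Of 7 genes of lactate and pyruvate metabolism, 3 were higher in RAG2-/- cells of each subset and none was called lower, against 23.4% and 20.8% of all genes higher. Centring gave 4 and 6 higher, and without both arrays with neutrophil transcripts 2 were higher in each subset and 1 lower in CD8α+ cells. Ldha, the lactate dehydrogenase subunit, rose by 1.23 and 1.41, Pdha1 of pyruvate dehydrogenase by 1.38 and 1.37 (adjusted p 0.0023 to 0.00368, under every alternative), and Pdhb was the third. Pdhb rose by 0.66 and 0.64, calls lost without both arrays with neutrophil transcripts (adjusted p = 0.0611 and 0.0688). By subset Ldha alone of the 7 was higher in CD8α+ cells, by 0.68 in wild type and 0.86 in RAG2-/- cells, against 9.23% and 11.1% of all genes. Neither Ldha subset call held without those 2 arrays.

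Of 14 carriers of amino acids, oligopeptides or pyruvate outside these families, 3 were higher and 1 lower in wild type CD8α+ cells, and 3 and 2 in RAG2-/- cells, against 9.23% and 7.87%, and 11.1% and 10.7%, of all genes. The count of higher ones fell to 0 in either genotype with 1 array left out. The lower ones were the lysosomal histidine and oligopeptide carriers Slc15a4, in both genotypes, and Slc15a3, in RAG2-/- cells. Slc15a4 read 10.97 and 10.97 in wild type CD8α-, 9.23 and 9.13 in wild type CD8α+, 11.35 and 10.80 in RAG2-/- CD8α- and 7.82 and 9.07 in RAG2-/- CD8α+ cells. Its difference was -1.78 in wild type (limma adjusted p = 0.021) and -2.63 in RAG2-/- cells (adjusted p = 0.00379). With the RAG2-/- arrays fitted alone the latter was lost (adjusted p = 0.0708), and the wild type call was lost without any 1 of the 4 wild type arrays (adjusted p 0.0929 to 0.121). Between genotypes 3 were higher and 1 lower in each subset, and 8 and 0 after centring. Of all genes 23.4% were higher and 17.1% lower in RAG2-/- CD8α- cells, and 20.8% and 16.1% in CD8α+ cells. Slc25a13, a mitochondrial aspartate and glutamate carrier, read 4.17 and 2.91 in wild type CD8α- and 6.30 and 6.44 in RAG2-/- CD8α- cells, at least 2.58-fold higher against a level of 5 (limma adjusted p = 0.00276), a call that held under every alternative. Among CD8α- arrays Slc25a13 reached 5 only on those of RAG2-/- cells, the group where it is high. Over the 5 pathway lists and the partners, 41 of 108 calls held without each array in turn, and the number of sensor genes higher in RAG2-/- CD8α- cells ran from 5 to 10 with the array left out.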

How the data were processed

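RNA of 8 sorted dendritic cell samples was read on Affymetrix mouse arrays. The deposited values are log2 expression values per probe set, normalized by the authors with GCRMA and affy for the wild type and GCRMA for the RAG2-/- arrays, per the submitters' processing notes; neither versions nor which arrays shared a normalization run is given in the sources used here. Scanner files were not used. Of 45101 probe sets, 34945 had 1 gene symbol, 932 several, 9160 none, and 64 were controls; probe sets with 1 symbol were used, with older symbols updated through RefSeq gene IDs (34741 matched).

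Values were used as deposited. Probe sets at log2 5 or more on at least 2 of 8 arrays entered the test, with the brightest on average standing for its gene (8763 genes). The 4 group means were fitted with limma 3.58.1 (in R 4.3.3, by eBayes without trend, on 4 residual degrees of freedom, 2-sided, Benjamini-Hochberg over all genes, called under 0.05), tested on simulated data. A gene whose lower group was below 5 on both arrays is given as "at least" a fold against 5. Carriers called in any comparison are given array by array, the rest by ranges and counts, with the 3 brightest uncalled named. Alternatives were other scalings, filters, offsets, probe set rules, moderation, the compared groups alone, a replicate block and leaving out each array; leaving out both arrays with neutrophil transcripts was added after seeing the data. The members and gene lists were chosen with earlier results of these data known. The number of arrays limits the precision. Python 3.11.15 and matplotlib 3.10.9 drew the figures.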

Additional observations from a re-analysis of the deposited data

How the results depend on the processing

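Of the 628 values of the 32 member calls, those of Slc7a6os included, under the alternatives, 504 kept direction and call, 123 kept direction only and 1 reversed, Slc6a13 between genotypes in CD8α- cells (0.09444 after centring); 8 calls held under all. Among 108 pathway calls 3 values reversed, all on averaging the probe sets of a gene: Lamtor1 (-0.06933) and Sesn1 (-0.03006) in CD8α- and Sesn1 (-0.4346) in CD8α+ cells, between genotypes. Wild type subset calls, 6 as reported, were 11 after quantile normalization, with the groups alone and without both arrays with neutrophil transcripts, and 2 to 10 without 1 array. RAG2-/- subset calls, 8, were 5 with a filter at log2 7 or the groups alone, and 6 to 10 without 1 array. Genotype calls in CD8α- cells, 9, were 14 after centring, 42 with no filter, 5 with a filter at 7 and 3 to 8 without 1 array; in CD8α+ cells, 7, they were 14, 43, 11 with each probe set tested and 4 to 8 without 1 array. With no filter 60% and 58.7% of all genes were called between genotypes. Interaction calls were 0 throughout. With the replicate number as a block the calls were 8, 8, 7, 7 and 0; the numbers do not pair the samples (correlations of replicate differences -0.146 to 0.112), and Slc38a1 (RAG2-/- subset), Slc1a5 and Slc6a13 (genotype, CD8α-) were lost. Values near or below log2 5 limit Slc16a7, Slc16a4, Slc6a12 and Slc7a5, and Slc1a4 on the RAG2-/- CD8α+ arrays.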
